A study of Mus musculus with 4 samples.

Results

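Regions with called ATAC-seq peaks in quadriceps (Quad) and soleus (Sol), and with none in extensor digitorum longus (EDL) or diaphragm (Dia), were described in mouse skeletal muscle. Peaks of the 4 muscles that overlapped by at least 1 bp were merged into 53883 regions, and 1980 of them held a Quad and a Sol peak and no EDL or Dia peak. These regions were selected on the measured peak calls, so the pattern of calls itself is a description and no finding. The 1980 regions made up 3.67% of all merged regions (95% Wilson interval, 3.52% to 3.84%) and 9.10% of the 21764 regions that held both a Quad and a Sol peak. Of the 16882 genes nearest to any merged region, 1750 (10.4%) were nearest to at least 1 of the 1980. Intervals here cover counting error over regions only.

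The data were 1 ATAC-seq library from each of 4 muscles of sedentary, male, wild-type C57BL/6 mice, and the labels call each library pooled, without a number of animals. No muscle had a replicate library, so no difference between muscles could be tested. Nuclei came from pulverised whole muscle, which holds fibres, vessels, nerve and connective tissue. A weaker peak can therefore stand for fewer cells of a type or for less open chromatin per cell, and these cannot be told apart. The lists held 40337 Quad, 28784 Sol, 30136 EDL and 21582 Dia peaks. Peaks near a fixed list of 20 slow-fibre contractile and calcium genes numbered 59 in Sol, 48 in Quad, 37 in EDL and 26 in Dia. Those near 20 fast-fibre genes numbered 36 in Sol, 54 in Quad, 42 in EDL and 19 in Dia.

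ATAC-seq reads out DNA that the Tn5 transposase can reach, mostly promoters and enhancers cleared of nucleosomes. Enhancers lie in introns and between genes, bind transcription factors at short motifs, and differ between cell types more than promoters do. Quad is a mostly fast, glycolytic thigh muscle and Sol is a slow, oxidative postural muscle of the calf. EDL is fast like Quad, and Dia, the breathing muscle, works without rest, so a Quad and Sol pairing crosses the usual grouping of these muscles by fibre type.

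Sequences of 8 of the 1980 regions, each named by its nearest gene, are shown to set the letters beside the values that follow. They were chosen from the strongest regions and from gene lists: Cactin for the highest scores, Ahnak and Tnnt3 for the highest scores far from any EDL or Dia peak, Gm20743 for paired MEF2 sites, Ankrd2, Casq2 and Fabp3 for slow-fibre genes, and Col12a1 for tendon genes. Each is the middle 200 bp of the region on the + strand of GRCm38/mm10, read from RefSeq, except Tnnt3, of which 190 bp outside annotated exons are shown. Capitals mark, on either strand, a MEF2 site, an AP-1 site (TGANTCA with C or G at N), the E-box CAGCTG of myogenic factors, or the SP/KLF site GGGCGG.
Cactin, chr10:81320433-81320632: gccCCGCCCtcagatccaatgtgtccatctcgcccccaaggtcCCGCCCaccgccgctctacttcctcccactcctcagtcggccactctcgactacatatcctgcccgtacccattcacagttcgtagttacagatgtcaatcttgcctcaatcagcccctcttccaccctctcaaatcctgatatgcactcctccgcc
Ahnak, chr19:8992828-8993027: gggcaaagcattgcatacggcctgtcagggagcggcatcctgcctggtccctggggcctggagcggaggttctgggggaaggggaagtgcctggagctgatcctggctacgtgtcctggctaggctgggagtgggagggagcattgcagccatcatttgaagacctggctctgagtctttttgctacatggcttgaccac
Tnnt3, chr7:142498646-142498835: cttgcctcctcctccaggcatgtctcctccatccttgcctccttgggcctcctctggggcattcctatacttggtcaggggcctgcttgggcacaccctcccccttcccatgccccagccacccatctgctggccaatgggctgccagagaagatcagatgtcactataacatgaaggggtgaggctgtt
Gm20743, chr1:164896451-164896650: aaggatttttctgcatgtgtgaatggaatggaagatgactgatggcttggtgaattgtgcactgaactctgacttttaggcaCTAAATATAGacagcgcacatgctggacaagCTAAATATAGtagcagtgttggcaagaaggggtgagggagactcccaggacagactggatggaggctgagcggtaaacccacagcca
Ankrd2, chr19:42017954-42018153: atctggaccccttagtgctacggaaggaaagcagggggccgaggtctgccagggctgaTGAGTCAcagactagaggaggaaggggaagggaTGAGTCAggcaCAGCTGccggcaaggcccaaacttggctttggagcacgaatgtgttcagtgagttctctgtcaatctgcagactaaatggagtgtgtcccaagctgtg
Casq2, chr3:102099308-102099507: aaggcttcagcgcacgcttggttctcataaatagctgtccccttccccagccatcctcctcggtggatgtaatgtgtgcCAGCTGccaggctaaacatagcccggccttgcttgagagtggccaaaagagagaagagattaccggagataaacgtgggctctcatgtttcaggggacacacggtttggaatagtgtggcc
Fabp3, chr4:130312648-130312847: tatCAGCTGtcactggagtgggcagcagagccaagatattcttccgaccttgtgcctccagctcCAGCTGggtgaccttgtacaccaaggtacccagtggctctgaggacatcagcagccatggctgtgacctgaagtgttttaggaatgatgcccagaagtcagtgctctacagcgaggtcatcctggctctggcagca
Col12a1, chr9:79680949-79681148: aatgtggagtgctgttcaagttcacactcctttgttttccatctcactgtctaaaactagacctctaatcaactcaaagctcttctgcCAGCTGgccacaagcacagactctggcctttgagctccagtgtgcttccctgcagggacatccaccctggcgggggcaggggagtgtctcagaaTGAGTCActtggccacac

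Cactin held 2 SP/KLF sites and Gm20743 held 2 MEF2 sites. Ankrd2 held 2 AP-1 sites followed by an E-box, Fabp3 held 2 E-boxes, Casq2 held 1, and Col12a1 held an E-box and an AP-1 site. The stretches of Ahnak and Tnnt3 held none of these 4 motifs.

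Most of the 1980 regions lay away from promoters. By the authors' annotation of the Quad peak, 881 (44.5%) were in introns, 741 (37.4%) were intergenic and 243 (12.3%) were at promoters, defined as 1 kb upstream to 100 bp downstream of a transcription start site (TSS). Of the intronic regions, 324 (36.8%) were in a first intron and 557 in a later one. The rest were 33 at transcript ends, 28 in exons, 28 in 3′ UTRs, 15 in 5′ UTRs and 11 in non-coding transcripts. The median distance to the nearest TSS was 21382 bp, with 340 regions (17.2%) within 1 kb, 751 (37.9%) at 10 to 50 kb and 271 (13.7%) beyond 100 kb. Among all other merged regions, 25.7% were within 1 kb. The nearest gene coded for a protein at 1645 regions and was a non-coding RNA gene at 314.

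The promoter share differed from that of a fast-muscle class and from that of the regions common to all muscles. At 12.3% (10.9% to 13.8%) it was 5.40 percentage points above that of the 4336 regions open in EDL and Quad only (6.87%; 95% Newcombe interval of the difference, 3.82 to 7.08). It was −0.208 points from that of the 649 regions open in Sol and Dia only (12.5%), with an interval from −3.30 to 2.57. The 14497 regions with a peak in all 4 muscles had a promoter share of 52.3%, so the Quad and Sol regions were 40.0 points lower (difference −40.0, interval −41.6 to −38.3). Regions of the other muscle pairs had shares of 9.07% (EDL and Sol only), 22.9% (EDL and Dia only) and 23.2% (Quad and Dia only). The 12.3% thus lay within the range of the pairs. When regions with a peak of a missing muscle within 500 bp were left out of both classes, a choice made after seeing the data, the differences were 3.90 points (2.42 to 5.51) from EDL and Quad and 2.17 points (−0.692 to 4.59) from Sol and Dia. When each list was cut to its 20000 best-scored peaks, the differences were 12.6 points (9.07 to 16.4) and 5.57 points (1.59 to 9.70), so the size of the first difference and the sign of the second depended on how the lists were handled.

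**Figure D1:**
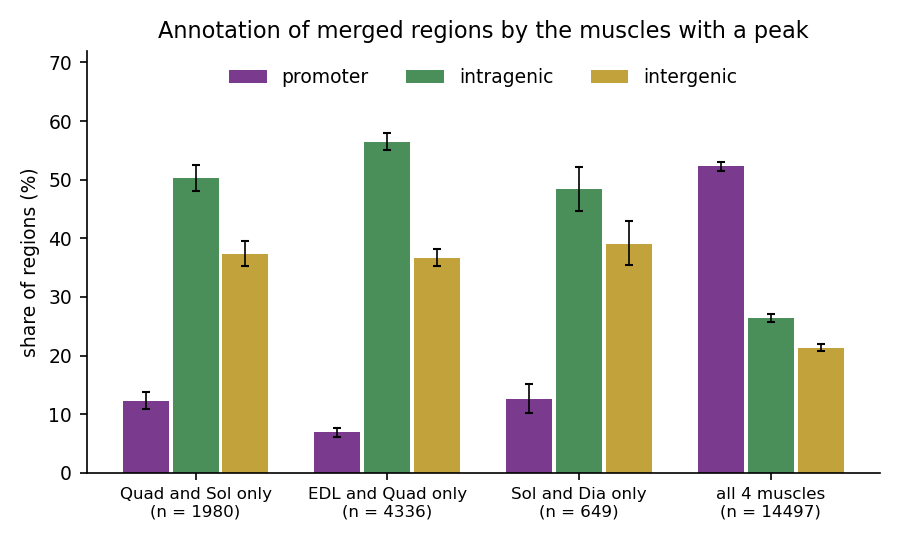
Share of merged regions (y axis, %) annotated as promoter, intragenic or intergenic in 4 classes named by the muscles with a peak, with 95% Wilson intervals as bars. Promoters made up 12.3% of the Quad and Sol regions and 52.3% of those open in all 4 muscles.

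The regions ranked low among the peaks of both muscles. Peak scores are tag counts scaled by library size, so they are given here as percentiles within each muscle's own list. The median score was 5.25 in Quad (lowest 3.46, highest 39.1) and 5.35 in Sol (lowest 3.06, highest 33.8), which put the median region at percentile 32.4 in Quad and 27.7 in Sol. For comparison, regions with a further peak in EDL had medians of 52.1 and 40.5, those with a further peak in Dia 48.0 and 37.0, and those open in all 4 muscles 78.4 and 71.1. The Quad median was 43.4 for EDL and Quad only, 36.4 for Quad and Dia only and 23.4 for Quad only. The Sol median was 29.3 for EDL and Sol only, 32.0 for Sol and Dia only and 16.1 for Sol only. Low ranks were thus not particular to the Quad and Sol regions. In 475 of the Quad and Sol regions (24.0%) both percentiles were below 25, in 247 both were above 50, in 59 both were above 75 and in 13 both were above 90. Promoter regions ranked higher, with medians of 52.1 in Quad and 41.6 in Sol, than the other 1737 regions, at 32.4 and 26.2. Since a call needs a score above a list's own limit, these ranks belong to what chose the regions.

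The ranks moved together across the 1980 regions, with Pearson's r of 0.625 and Spearman's rho of 0.533, against 0.799 and 0.841 over all 21764 regions shared by Quad and Sol. These points share both libraries and are not independent. Pearson's r was 0.788 over the 243 promoter regions and 0.553 over the other 1737. Calls on these scores chose the 1980 regions, which ranked low, so the comparison with all shared regions is not over like ranks. The percentiles were within 10 points of each other in 838 regions and more than 50 points apart in 16. Quad had the higher percentile in 1199 regions. The most Quad-weighted region was intronic and lay 29547 bp upstream of the start of Agbl3, at 69.0 in Quad and 14.5 in Sol. Next came a region 101581 bp upstream of Arhgef26 and the Sytl2 promoter, both at 61.1 and 6.65. The 3 most Sol-weighted were a region 133727 bp downstream of the start of Plpp3 at 2.35 in Quad and 79.2 in Sol, a transcript end nearest to A230009B12Rik at 4.70 and 76.6, and the Ttc9 promoter at 20.8 and 78.3.

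**Figure D2:**
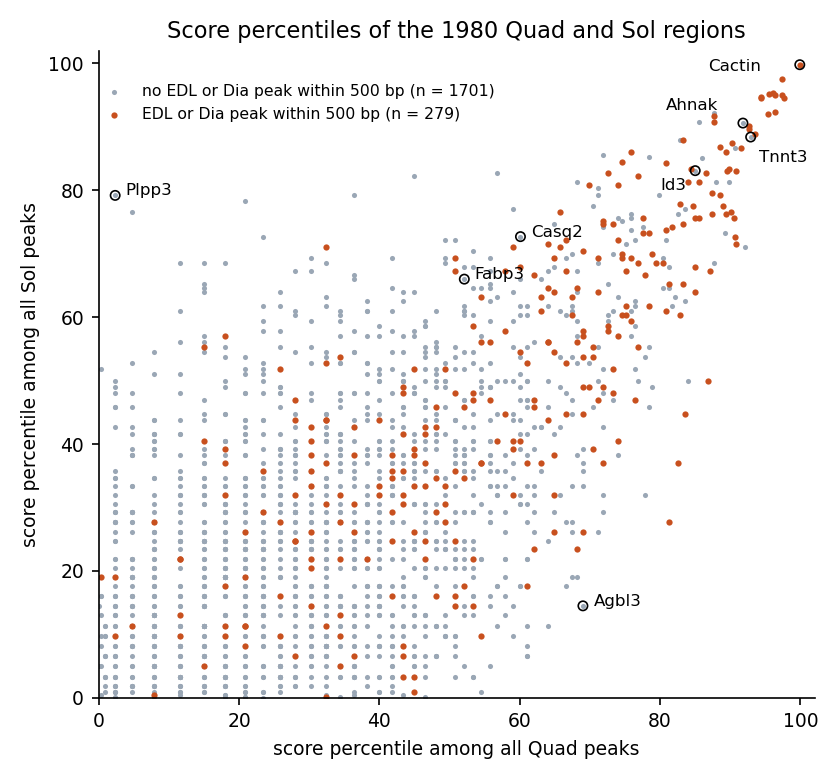
Each of the 1980 regions by its score percentile among all Quad peaks (x axis) and all Sol peaks (y axis), in orange where an EDL or Dia peak lay within 500 bp (279 regions) and in grey otherwise (1701). Open circles mark named regions, and orange points crowd the upper right corner around Cactin.

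A missing EDL or Dia call was most frequent where the Quad and Sol peaks were weakest. Among regions with both a Quad and a Sol peak, the share lacking EDL and Dia peaks was 41.7% (37.8% to 45.8%) in the lowest 10 percentiles of Quad score, 14.7% between percentiles 40 and 50, and 0.637% (0.432% to 0.939%) in the highest 10. Ranked by Sol score, the same share went from 35.6% (32.7% to 38.6%) to 0.600% (0.375% to 0.959%). Calls on peak scores chose the regions, so this fall with score belongs to the selection and is no finding. The lowest listed scores were 3.20 in Quad, 3.06 in Sol, 3.27 in EDL and 3.63 in Dia, and 1931 of the 1980 regions had both scores above the Dia limit. In 211 regions both scores were above 7.26, which is 2 times that limit, and in 48 both were above 10.9, which is 3 times it.

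**Figure D3:**
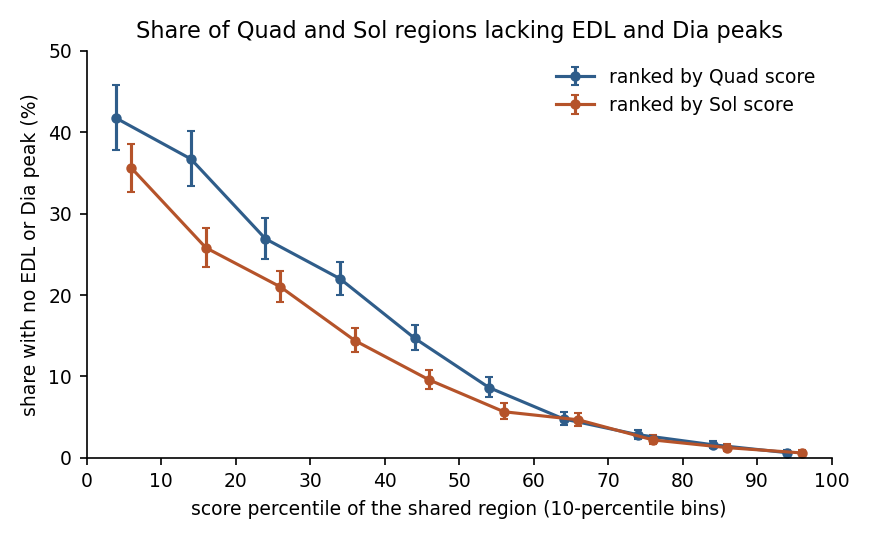
Share (y axis, %) of regions with both a Quad and a Sol peak that held no EDL or Dia peak, by the region's score percentile in Quad (blue) or Sol (orange), in bins of 10 percentiles with 95% Wilson intervals. The share was 41.7% in the lowest Quad bin and 0.637% in the highest. Calls on peak scores chose the regions, so the fall is a description.

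Of the 10 regions with the highest lower percentile, 8 were promoters and 2 lay in a first intron, and all 10 had an EDL and a Dia peak beside them. At Cactin, whose product is a splicing factor, the region at chr10:81320430-81320636 lay 565 bp upstream of the TSS, scored 39.1 in Quad and 33.8 in Sol (percentiles 99.9 and 99.8), and ended 32 bp from an EDL peak and 64 bp from a Dia peak. The promoter region of 9430038I01Rik scored 24.2 in Quad and 23.4 in Sol and lay 93 bp from an EDL peak and 55 bp from a Dia peak. Klf9, which encodes a zinc-finger factor of the KLF family, had a region 140 bp upstream of its TSS at chr19:23140992-23141198 with scores of 21.6 and 19.8 and an EDL peak 115 bp away. Hsph1, a large heat shock protein, had a promoter region with scores of 20.7 and 19.7, an EDL peak 155 bp away and a Dia peak 143 bp away.

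The same held for Egr1, an immediate early zinc-finger factor, where scores of 22.0 in Quad and 19.4 in Sol stood beside an EDL peak at 62 bp and a Dia peak at 48 bp. Tef, a clock output factor, scored 25.0 and 18.8 with an EDL peak at 28 bp and a Dia peak at 76 bp. Regions at 0610009O20Rik, Osbpl9 (intron 1, 300 bp downstream of the TSS), 4930526I15Rik and Cep97 (intron 1, 308 bp downstream) completed the 10, and their EDL gaps were 126, 55, 379 and 91 bp. At all 10 of them both the EDL and the Dia list therefore held a peak within 379 bp that did not overlap the region.

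Over all 1980 regions an EDL or Dia peak lay within 100 bp of 113, within 500 bp of 279 (14.1%) and within 1 kb of 363, which left 1617 regions with none within 1 kb. Promoter regions had one within 500 bp in 86 of 243 (35.4%), other regions in 193 of 1737 (11.1%). The median gap was 4253 bp for promoter regions and 9838 bp for the others. Of the 59 regions with both percentiles above 75, 43 (72.9%) had one within 500 bp, and of the 13 with both above 90, 12 did. The Quad and Sol peaks of a region were themselves a median of 43.0 bp apart between centres.

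**Figure D4:**
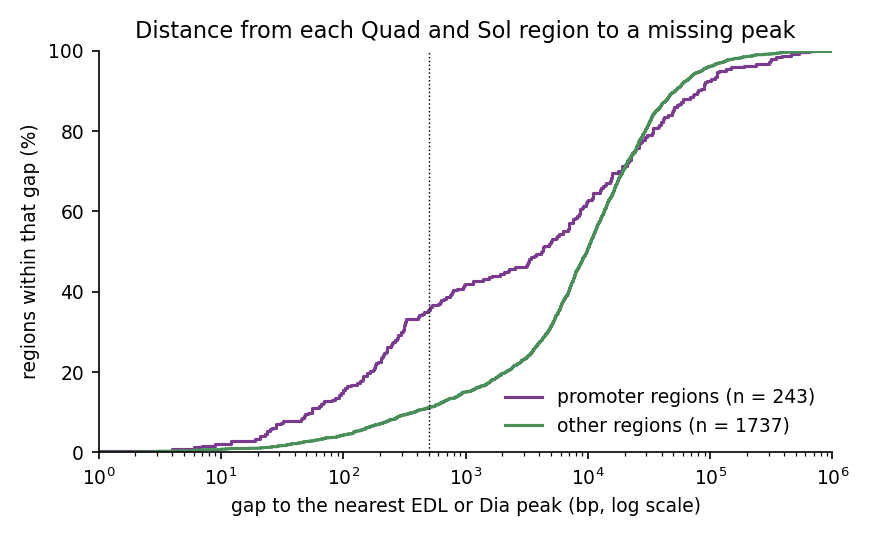
Cumulative share of promoter regions (purple, 243) and other regions (green, 1737) by the gap to the nearest EDL or Dia peak (x axis, bp, log scale), with a dotted line at 500 bp. At that line the share was 35.4% for promoter regions and 11.1% for the others.

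Regions with no EDL or Dia peak within 1 kb reached high scores too. Ahnak, which encodes a giant scaffold protein of the cell membrane and costamere, had the highest lower percentile of these, in its first intron at chr19:8992802-8993055, 3612 bp downstream of the TSS. Its scores of 16.6 in Quad and 15.7 in Sol ranked at percentiles 91.8 and 90.6, and the nearest EDL peak was 4579 bp away. Around it, all 4 lists held a peak upstream of the TSS and one farther into the gene. The upstream peak scored 8.71 in Quad, 10.1 in Sol, 8.85 in EDL and 7.65 in Dia. The next intronic peak scored 12.3 in Quad, 13.0 in Sol, 9.81 in EDL and 9.27 in Dia.

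Id3 encodes an inhibitor of E-box-binding myogenic factors. Its region, 4152 bp downstream of the TSS at chr4:136147880-136148095, scored 12.9 in Quad and 12.5 in Sol (percentiles 85.0 and 83.1). The Id3 promoter itself had a peak in each of the 4 lists, scoring 23.6 in Quad, 17.9 in Sol, 20.3 in EDL and 19.8 in Dia. Slc25a25, a mitochondrial ATP-Mg/phosphate carrier, was alike in having promoter peaks in all 4 lists, while its region in intron 9 at chr2:32416697-32416924 scored 13.3 in Quad and 13.2 in Sol with no EDL peak nearer than 7198 bp. At both genes the promoter was open in every muscle and the Quad and Sol region was a further site.

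Nfil3, a transcriptional repressor tied to the circadian clock, differed in that the region was its promoter. It lay at chr13:52980932-52981143 with scores of 14.2 in Quad and 12.0 in Sol, and the nearest EDL and Dia peaks were 39723 and 39746 bp away. The promoters of Josd1 (scores 14.1 and 16.8) and of Trpm4 (11.3 and 11.5), a calcium-activated cation channel, also had no EDL or Dia peak within 1 kb, as did a region nearest to Gzmm (15.2 and 12.0) and the region with paired MEF2 sites, 33475 bp downstream of the start of Gm20743 (12.0 and 10.8).

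Tnnt3, the troponin T of fast fibres, was the single fast-fibre gene with a Quad and Sol region. Its promoter region at chr7:142498584-142498908 scored 17.5 in Quad and 14.5 in Sol (percentiles 92.9 and 88.4). The nearest EDL peak was 17724 bp away, although EDL is a fast muscle, and the nearest Dia peak was 213681 bp away. The fast-fibre list thus held 1 of 67 regions (1.49%; 0.264% to 7.98%), an interval that includes the 3.67% of all merged regions that were open in Quad and Sol only, and with every list cut to 20000 peaks it held 2 of 58 (3.45%; 0.951% to 11.7%).

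A limit applies to that stretch of chromosome 7. The Dia list held no peak between chr7:142284902 and chr7:143008146, 723 kb in all, where Quad had 25 peaks and Sol and EDL had 17 each. The stretch held 4 of the 1980 regions: the Tnnt3 promoter, the promoter of the non-coding RNA Nctc1 (12.2 in Quad and 14.3 in Sol, EDL peak 8493 bp away), a region 22837 bp upstream of the imprinted RNA H19 (15.9 and 12.5, EDL peak 226 bp away) and a weak region near Th (4.61 and 4.78). Without these 4 the number of regions was 1976, and the fast-fibre list held none. The part of the missing Dia calls in these results was not tested.

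The share of Quad and Sol regions was higher among regions nearest to the slow-fibre list than among the merged regions at large. Of 88 regions nearest to the slow-fibre list, 9 were Quad and Sol regions (10.2%; 5.47% to 18.3%), beside 3.67% over all merged regions, and they belonged to 8 of the 19 list genes with any region. Among the 27 slow-list regions shared by Quad and Sol the share was 33.3%, beside 9.10% overall. This share varies with peak score, and these sets were not matched for score. With every list cut to 20000 peaks it was 3 of 71 (4.23%; 1.45% to 11.7%), beside 1.88% of all regions, so the excess over all regions then lay within counting error. The list was chosen with earlier results of these data known, and its share is a description. An excess was not particular to the Quad and Sol regions. Of the same 88 regions, 25 had a peak in Sol only, a class that held 8.62% of all merged regions. By contrast, 10 had a peak in Quad only, a class that held 22.7%. Whether the excess goes with a Sol peak in general was not tested.

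The slow-fibre regions lay outside promoters and 8 of the 9 had no EDL or Dia peak within 500 bp. Casq2, the calsequestrin of slow fibres and heart, had an intron 1 region at chr3:102099302-102099515 scoring 7.68 in Quad and 10.1 in Sol. Fabp3, the fatty acid-binding protein of oxidative muscle, had an intron 2 region at chr4:130312616-130312880 scoring 6.79 and 9.08. The region nearest to Myoz2, the Z-disc calsarcin of slow fibres, scored 6.53 and 9.46 and lay 76189 bp upstream of its start. In each of these 3 the Sol percentile (72.7, 66.0 and 68.6) was above the Quad percentile (60.1, 52.1 and 49.4).

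The region nearest to Ankrd2, a stretch-responsive ankyrin repeat protein, lay 18016 bp upstream of its start. It went the other way, with 9.99 in Quad and 8.32 in Sol, and was the 1 region of the list with an EDL peak close by, at 236 bp. Actn2, an α-actinin of the Z-disc, had a pair of regions upstream of its start, scoring 4.74 and 8.22 at the nearer and 4.48 and 5.64 at the farther. A region 23645 bp downstream of the start of Mb, which encodes myoglobin, scored 5.25 and 5.64. One 26583 bp upstream of Mybpc1, slow myosin-binding protein C, scored 4.61 and 5.07. Fhl1, a LIM-domain protein, had one with 4.10 and 3.73.

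Other muscle lists held these regions at or near the background share of 3.67%. Regulators of muscle transcription held 9 of 286 regions (3.15%), with 3 around Maf and 1 each near Hdac4, Mef2c, Six4, Vgll2, Mef2a and Eya4, and the highest scores among them were 6.79 in Quad (Maf) and 6.12 in Sol (Vgll2). Z-disc and costamere genes held 4 of 167 (2.40%), led by a region 15890 bp upstream of desmin (Des; 10.2 and 10.8). Oxidative metabolism regulators held 3 of 133 (2.26%), at sites 59788 bp upstream of Nrip1, 14110 bp upstream of the nearest Thrb start and 512190 bp from Ppargc1a. Lipid genes held 2 of 82, and immediate early genes 5 of 140 (3.57%).

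Glucose and insulin signalling genes held 8 of 183 (4.37%). Tbc1d4, the Rab GTPase-activating protein that gates glucose transporter traffic, had 3: its promoter at chr14:101609045-101609251 with 9.48 in Quad and 10.5 in Sol, where EDL and Dia peaks lay 46 and 73 bp away, and a pair in intron 1 with 5.89 and 5.64, and 5.38 and 5.64. Prkaa2, a catalytic subunit of the AMP-activated kinase, had its promoter (7.94 and 9.18, EDL peak 324 bp away) and an intron 1 region (5.12 and 6.50). Hk2, Tbc1d1 and Trib1 had 1 each. Neuromuscular junction genes held 7 of 107 (6.54%; 3.20% to 12.9%), a pair each at Ank3 and Sntb1 and 1 each at Nes, Ncam1 and Ank1.

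Markers of other cells of the muscle were spread unevenly. Each region is listed by its nearest gene and can lie far outside it. Tendon genes held 4 of 27 regions (14.8%; 5.92% to 32.5%): the Egr1 promoter named above, an intron of Col12a1 (4.74 in Quad and 6.40 in Sol) and a pair at Tnc (5.25 and 4.87, and 6.15 and 4.01). Fibroblast markers held 6 of 108 (5.56%; 2.57% to 11.6%), nearest to Thy1, Col1a1, Mfap5 and Dcn. The Thy1 regions were intergenic, 58963 and 90087 bp upstream of its start. The nearer had an EDL peak 189 bp away and a Dia peak 141 bp away. Endothelial markers held 7 of 142 (4.93%), 3 at Flt1. Smooth muscle and pericyte markers held 4 of 51 (7.84%, interval 3.09% to 18.5%), nearest to Des, Acta2, Rgs5 and Tbx18 (112901 bp upstream of its start). The Des region (10.2 and 10.8) was also counted above among Z-disc genes, and the others of this list were weaker. Satellite cell markers held 3 of 56, nearest to Sdc4, Pax7 and Chodl (99871 bp upstream of its start). Schwann markers held 2 of 45, at Ngfr and at the Ncam1 region also counted among neuromuscular junction genes. Leukocyte, adipocyte and hindlimb patterning lists held 0 of 35, 0 of 37 and 0 of 35, which allows shares of up to 8.57%, 8.11% and 8.57% (3 regions). The intervals of the slow-fibre and tendon lists, alone among the 18 lists, lay above 3.67%. The tendon share rests on 4 regions and with 20000 peaks was 1 of 13 (7.69%; 1.37% to 33.3%), beside 1.88% of all regions. The part of tendon or vessel cells in the Quad and Sol regions was not tested.

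A pair of lists was added after the values were seen, because heat shock and clock genes stood among the strongest regions. Heat shock and chaperone genes held 5 of 49 (10.2%; 4.44% to 21.8%), at Hsph1, Bag3 (2 regions), Dnaja1 and Hspa8. The first Bag3 region had a Dia peak 7 bp away. Circadian genes held 4 of 107 (3.74%), nearest to Tef, Cry1 and Nfil3 (2). The Cry1 region lay 36078 bp upstream of its start and the weaker Nfil3 region 128743 bp upstream.

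Most genes had only 1 such region: 1556 of the 1750 had 1, 162 had 2, 28 had 3 and 4 had 4. Those with 4 were 9530026P05Rik, Akap2, Fam198b and Zeb1, which had 16, 13, 14 and 17 merged regions in all. At Akap2, an anchoring protein for protein kinase A, they were all intronic and scored between 3.97 and 7.56 in Quad and between 4.11 and 9.27 in Sol. At Zeb1, a zinc-finger repressor, 1 was the promoter (6.40 and 6.50) and the others were 1 intronic and 2 intergenic. Afdn, a junction protein, had 3 among only 7 regions. The other genes among the 10 with the most such regions were 1700016G22Rik, 1700029N11Rik, 2310020H05Rik, A230009B12Rik and Arhgap26, with 3 each.

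The regions were scattered along the genome. On the 19 autosomes and the X chromosome their share of merged regions ran from 3.16% on chromosome 8 to 4.48% on chromosome 19. Another Quad and Sol region lay within 10 kb of 64 of them and within 50 kb of 343 (17.3%). A region open in all 4 muscles lay within 10 kb of 409 (20.7%) and within 50 kb of 1299 (65.6%).

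DNA sequence was not used to choose the regions, so motifs could be compared with other classes. In the middle 200 bp, 24.2% of the 1978 regions with sequence held the E-box CAGCTG, 9.91% an AP-1 site, 4.55% a MEF2 site and 17.5% the SP/KLF site, beside 20.4%, 7.51%, 3.91% and 21.2% of all merged regions. In windows 2 kb downstream these shares were 9.71%, 3.79%, 1.16% and 3.24%. Each downstream window belongs to its own region, but the intervals of the differences treat the windows as independent. The differences from the downstream windows were 14.51 points for the E-box (12.21 to 16.80), 6.12 for AP-1 (4.56 to 7.70), 3.39 for MEF2 (2.37 to 4.47) and 14.26 for SP/KLF (12.42 to 16.13). At least 1 of the E-box, AP-1 and MEF2 sites was in 690 windows (34.9%), with AP-1 and E-box together in 46 and MEF2 and E-box together in 21. A rise over downstream windows was not particular to these regions. For the E-box it was 24.6% against 9.16% in EDL and Quad, 19.4% against 11.2% in Sol and Dia and 17.3% against 8.85% in all 4 muscles. For AP-1 the same classes had 8.28% against 3.67%, 6.63% against 4.62% and 6.14% against 3.38%.

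Since promoters carry other motifs and differ in number between classes, the classes were also compared with promoter regions left out. AP-1 sites were then in 11.0% of the Quad and Sol regions and in 8.47% of the EDL and Quad regions, a difference of 2.54 points (0.89 to 4.30), and in 7.04% of the Sol and Dia regions, a difference of 3.97 points (1.19 to 6.37). With promoters included and the lists cut to 20000 peaks, the AP-1 differences were 0.02 points (−2.34 to 2.73) and 1.29 points (−1.22 to 4.07), against 1.63 and 3.28 as reported, so neither interval then excluded 0. The SP/KLF site was in 11.9%, which was 4.37 points above EDL and Quad (2.70 to 6.15) and 4.83 above Sol and Dia (2.03 to 7.27). The ETS site CCGGAAG was in 2.54%, 1.27 points above EDL and Quad (0.52 to 2.18). The MAF half-site TGCTGAC was less frequent, in 5.01% against 7.97% of EDL and Quad regions (difference −2.96, −4.24 to −1.58) and 7.22% of Sol and Dia regions (−2.20, −4.80 to −0.03). With promoters and 20000 peaks the MAF difference from Sol and Dia was −1.60 (−3.56 to 0.60). Only the promoter window defined above was left out, so regions at Osbpl9 (300 bp downstream of a TSS) and Cep97 (308 bp) stayed in. The part of such regions in the motif and base composition differences was not tested.

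For MEF2 the share outside promoters was 5.01%, against 6.19% in EDL and Quad (difference −1.18, −2.40 to 0.15) and 7.22% in Sol and Dia (−2.20, −4.80 to −0.03). The E-box was in 25.8%, against 25.3% in EDL and Quad (0.43, −1.99 to 2.92) and 20.6% in Sol and Dia (5.17, 1.12 to 8.93). Against regions open in all 4 muscles outside promoters, intervals excluded 0 for 3 of the 18 motifs, SP/KLF (−7.66 points), NF-Y CCAAT (−3.27) and ETS (−1.34), and in each the Quad and Sol regions had fewer. Of 54 differences computed with promoters included, 24 had 95% intervals that excluded 0. The 99.91% level allows for the 54 intervals of 1 set, and not for both sets, with and without promoters. At that level SP/KLF, ETS and MAF differed from EDL and Quad with promoters left out. The ETS interval, 0.05 to 2.92, ended close to 0. Also with promoters left out, SP/KLF differed from all 4 muscles, and no motif differed from Sol and Dia.

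**Figure D5:**
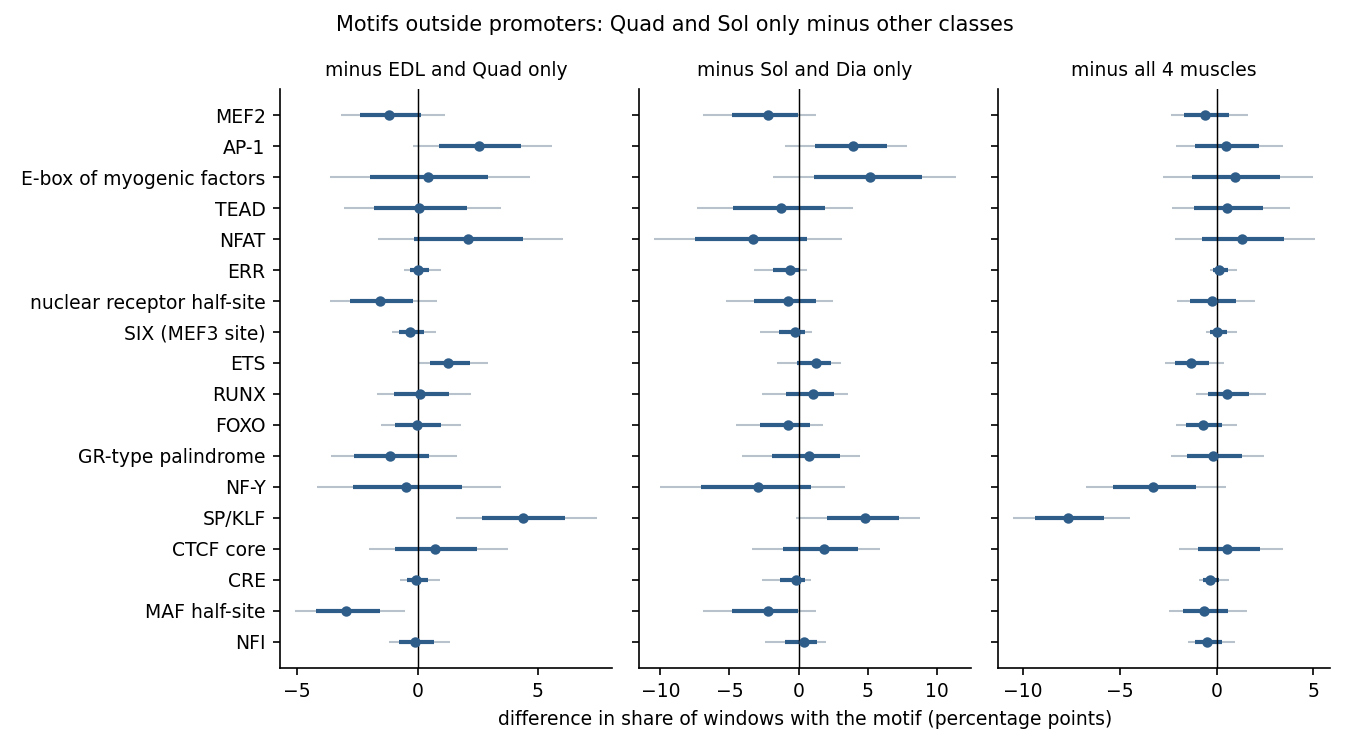
Difference in the share of 200-bp windows that held each of 18 motifs (x axis, percentage points), Quad and Sol only minus each of 3 other classes, promoters left out. Thick lines are 95% intervals and thin lines 99.91% intervals, and SP/KLF lay at 4.37 points against EDL and Quad and at −7.66 against all 4 muscles.

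The other motifs searched, on both strands, were TEAD GGAATG (12.7% of the Quad and Sol windows and 12.1% of all merged regions), NFAT TGGAAA (19.8% and 18.1%), ERR TCAAGGTCA (0.404% and 0.405%), the nuclear receptor half-site AAGGTCA that the ERR site contains (4.90% and 4.88%), MEF3 TCAGGTTTC (0.607% and 0.570%), RUNX TGTGGTT (3.89% and 3.76%), FOXO TGTTTAC (2.68% and 2.91%), the glucocorticoid receptor type palindrome ACANNNTGT (7.08% and 6.71%), the CTCF core AGGGGGC or AGGTGGC (11.4% and 11.3%), CRE TGACGTCA (0.758% and 1.05%) and NFI (1.67% and 1.57%). NF-Y was in 20.4% and 24.8%, ETS in 3.89% and 5.04%, and the MAF half-site in 4.70% and 5.39%. A match is a description of letters and not a bound site.

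Base composition lay between the muscle-restricted classes and the common regions. Mean GC content of the windows was 54.5% ± 8.56 (SD over 1978 regions), against 52.1% ± 6.80 in EDL and Quad, 53.2% ± 8.14 in Sol and Dia and 59.9% ± 8.93 in all 4 muscles. With promoters left out the means were 52.9% ± 6.93, 51.4% ± 5.94, 51.6% ± 6.47 and 54.9% ± 7.56, and the differences were 1.49 points from EDL and Quad (1.12 to 1.87), 1.31 from Sol and Dia (0.69 to 1.93) and −1.98 from all 4 muscles (−2.35 to −1.61). Downstream windows had 45.3% ± 7.45. Windows more than 50% covered by repeats made up 0.910% of the Quad and Sol regions (0.576% to 1.43%) and 1.75% of the EDL and Quad regions.

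The edge of the 1 bp rule was thin. The regions of smallest overlap joined a Quad and a Sol peak by 1 bp in intron 1 of Kdm3b (scores 4.74 and 3.92), by 2 bp in intron 3 of Slc38a6 (5.51 and 5.45) and by 4 bp at the Stx11 promoter (4.61 and 5.16), while the median overlap was 155 bp. Just outside, Quad peaks near Crim1 (6.02), Celf2 (4.99) and Ssbp3 (5.38) abutted a Sol peak without sharing a base. In all, 17 regions called only in Quad had a peak called only in Sol within 10 bp, and 96 had one within 100 bp. On the other edge, 19 of the 1980 regions had an EDL or Dia peak within 10 bp.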

How the data were processed

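The authors pulverised frozen muscle, transposed nuclei and sequenced 42-bp pairs, aligned reads to mm10 with Bowtie2 and called peaks per library with HOMER in its factor mode, keeping at most 1 tag per position. Bowtie2 by default places a read that fits several positions at 1 of them, and a Tn5 shift is not given in the sources used here. The deposited lists give for each peak a score (tags scaled by library size), a focus ratio (a fraction of tags near the centre, described but not tested) and an annotation with a distance to the nearest TSS, all made by the authors.

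Peak ends were read as 1-based and inclusive. A region took the annotation of its best-scored Quad peak. Read totals were not used here: below a score of 10 at least 94.7% of scores were whole multiples, within 0.05 of a step, of one step per list, which implies 104 M tags in EDL, 78.1 M in Quad, 105 M in Sol and 99.3 M in Dia if scores are per 10 M tags. If 1 step is 1 tag, the median region held 41 tags in Quad and 56 in Sol, and the lowest listed peaks 25 in Quad, 32 in Sol, 34 in EDL and 36 in Dia.

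Regions, motif list and 18 gene lists were chosen with earlier results of these data known, and 2 lists were added later. Named regions were the 10 with the highest lower percentile, the 10 such with no EDL or Dia peak within 1 kb, the 10 genes with most regions, the 3 most Quad-weighted and the 3 most Sol-weighted, up to 4 per list and those at the edge of the overlap rule; further list members were named after their values were seen. Motifs were searched in 200 bp at the region's middle in GRCm38.p6 (all 53857 regions on assembled chromosomes lay inside them; 2 of the 1980 regions were on unplaced scaffolds), and printed sequence avoids GENCODE vM21 exons. Intervals were Wilson and Newcombe at 95%, from SciPy 1.17.1, with pandas 2.3.3 and samtools 1.23.1; the code was tested on simulated data. With 1 library per muscle no test between muscles was made.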

Additional observations from a re-analysis of the deposited data

How the results depend on the processing

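The number of regions was 1980 as reported, 2145 with 50% reciprocal overlap, 2003 with every peak 200 bp wide, 1978 on autosomes and X and 1701 without those near an EDL or Dia peak. It was 602 with every list cut to its 20000 best-scored peaks, of which 396 overlapped the 1980 185 had an EDL peak alone below that limit, 17 an EDL and a Dia peak and 4 a Dia peak alone, and 960 with the upper 50% of each list, of which 256 overlapped. The promoter share of 12.3% was 17.2% for a TSS within 1 kb on either side, 23.3% with 20000 peaks, 9.23% without regions within 500 bp of an EDL or Dia peak and 17.5% with 50% reciprocal overlap. Its difference from EDL and Quad was 7.58 points by TSS distance, 12.6 with 20000 peaks and 2.36 when near regions were left out of the Quad and Sol regions alone, which are more often promoters than the rest. That from Sol and Dia was 5.57 with 20000 peaks, and that from all 4 muscles −36.5 with 20000 peaks and −43.1 with that one-sided filter. With 20000 peaks the median distance to the TSS was 9905 bp and the median percentiles, in the shortened lists, were 25.4 in Quad and 28.0 in Sol. Without near regions they were 30.2 and 24.8. The number of the 18 gene lists whose interval excluded the share over all regions was 2 as reported, 0 with 20000 peaks and 3 without near regions, when neuromuscular junction genes joined the slow-fibre and tendon lists. Of the 54 motif differences, 24 excluded 0 as reported and 13 with promoters left out. Without promoters, the GC difference was 1.49 points from EDL and Quad and −1.98 from all 4 muscles. Among motif differences from all 4 muscles whose interval excluded 0 as reported, the sign turned without promoters for MEF2 (−0.59 points), the nuclear receptor half-site (−0.24, and −0.39 with 20000 peaks), the palindrome (−0.17) and the CTCF core (0.56). The causes were not tested. Leaving out the chromosome 7 stretch and the filter on both classes were added once the values were known. No paired analysis between muscles was possible because each muscle had 1 library.

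A missing call says only that no peak was listed at that position, and each list has its own width, limit and depth. Each muscle had 1 library, so no region was tested for a difference between muscles, and the lowest listed peaks carry 25 to 36 tags if 1 step of the score is 1 tag.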

Other observations

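A focus ratio, the share of a peak's tags close to its centre, accompanied every peak. The promoter regions open in Quad and Sol only had medians of 0.606 in Quad and 0.614 in Sol, the other regions 0.667 and 0.648. Regions with an EDL or Dia peak within 500 bp had 0.611 and 0.600, those with none within 1 kb 0.667 and 0.653. Regions with a neighbouring EDL or Dia call had the lower medians, and this was not tested.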
